A study of Mus musculus with 10 samples.

Results

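The Etv, Sprouty, Spred, Dusp6 and Il17rd genes are transcriptional outputs and inhibitors of receptor tyrosine kinase signalling, and they are described here in metanephric mesenchyme of Wnt9b-/- and Wnt9b+/+ mouse embryos at stage E11.5. The members were 10 named genes, and every probe set that the array's annotation ties to exactly 1 of them was taken. This gave 28 probe sets for 9 of the 10 genes, out of 45037 probe sets other than controls and 18193 genes. The 3 probe sets of Etv1 are annotated to a second gene as well, so Etv1 was not measured under this rule. RNA came from 5 mutant and 5 wild-type pools, each of 25 to 30 mesenchymes freed of the ureteric bud by enzyme digestion, and each pool was hybridised to its own Affymetrix mouse array. The mutants came from intercrosses of Wnt9b+/- animals, and the labels name no Cre driver. The sample labels call the controls +/+ littermates, whereas the series' design text names +/- mesenchymes, and the sample labels were followed. Wnt9b is a ligand of the ureteric bud epithelium, which the protocol took away before RNA was extracted. Signal of bud markers was still read on every array, at sums of 1558 to 4460.

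When a growth factor such as an FGF or GDNF binds its receptor tyrosine kinase, the signal passes through RAS and RAF to the kinase ERK. ERK activity switches on a small group of genes in many tissues. Etv4 and Etv5 (with Etv1, the PEA3 group of ETS transcription factors) carry the signal into transcription, while Sprouty and Spred proteins, the ERK phosphatase Dusp6 and the membrane protein Il17rd (Sef) damp it. In the developing kidney these genes are known from both sides of the tissue, the nephron progenitors of the mesenchyme and the tips of the ureteric bud, where Ret signalling induces Etv4 and Etv5 and Spry1 limits the response to Gdnf.

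The start-site windows of 2 members are shown because they hold letters that ETS factors, the family of Etv4 and Etv5, are known to bind. RefSeq windows on GRCm38.p6, from 250 bases before to 50 bases after a gene's start, were searched for 8 of the 10 genes, 10 windows in all. Etv4 and Spry4 were not searched. The ETS letters searched were CCGGAA and GGAAGTG, which overlap each other where both occur in one run, and the letters for the Wnt effectors TCF and LEF were CTTTGA, each on both strands. Matches are in capitals, and each window reads 5′ to 3′ on its gene's strand, the minus strand for both.

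Etv5 chr16:22438319-22438618: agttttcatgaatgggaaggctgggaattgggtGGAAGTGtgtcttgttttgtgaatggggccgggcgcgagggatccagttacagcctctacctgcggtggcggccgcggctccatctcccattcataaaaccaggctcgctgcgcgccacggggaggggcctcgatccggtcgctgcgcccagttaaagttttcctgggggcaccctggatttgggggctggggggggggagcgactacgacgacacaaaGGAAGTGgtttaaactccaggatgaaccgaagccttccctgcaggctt

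Spry2 chr14:105896770-105897069: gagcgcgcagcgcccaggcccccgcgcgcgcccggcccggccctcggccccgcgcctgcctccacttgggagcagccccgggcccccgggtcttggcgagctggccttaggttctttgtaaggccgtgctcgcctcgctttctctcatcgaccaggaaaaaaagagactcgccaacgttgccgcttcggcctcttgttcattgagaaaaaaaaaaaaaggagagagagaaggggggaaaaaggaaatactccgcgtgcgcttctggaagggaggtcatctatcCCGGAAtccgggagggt

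The Etv5 window held GGAAGTG at positions 34 and 253, counted from its 5′ end, and a second Etv5 window held none of the 3 motifs. The Spry2 window held CCGGAA at position 284. In 1 of 2 Etv1 windows the reverse complement of CTTTGA was found, and the windows of Spry1, Spred1, Spred2, Dusp6 and Il17rd held none of these letters. Of all 32851 windows, 4894 (14.9%) held CCGGAA, 3615 (11.004%) held GGAAGTG and 5257 (16.003%) held CTTTGA, so single matches among 10 windows were near that background. A match is a description of letters and not a measured site.

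All 9 measured feedback genes had a lower mean in the mutant than in wild type, by 0.18 (Spry4) to 1.44 (Etv4) on the log2(signal + 1) scale, called log2 signal below. The median difference was -0.48, against +0.02 over all 18193 genes, and 45.1% of all genes had a difference below 0. None of the 9 was called at a limma adjusted p under 0.05, a mark that 1 gene on the array reached (0.0055%). Etv5, Spry1, Spred1 and Il17rd, 4 of 9, were lower at an unadjusted p under 0.05, against 2.08% of all genes. Etv5 and Spry1, 2 of 9, had groups of arrays that did not overlap, against 0.555% of all genes. No member was higher at either mark, where 3.41% and 0.654% of all genes were. These genes were chosen with earlier results of the same arrays known, so the counts describe them and test nothing about the list. In pooled tissue, fewer cells of a type and less RNA per cell cannot be told apart.

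**Figure D1:**
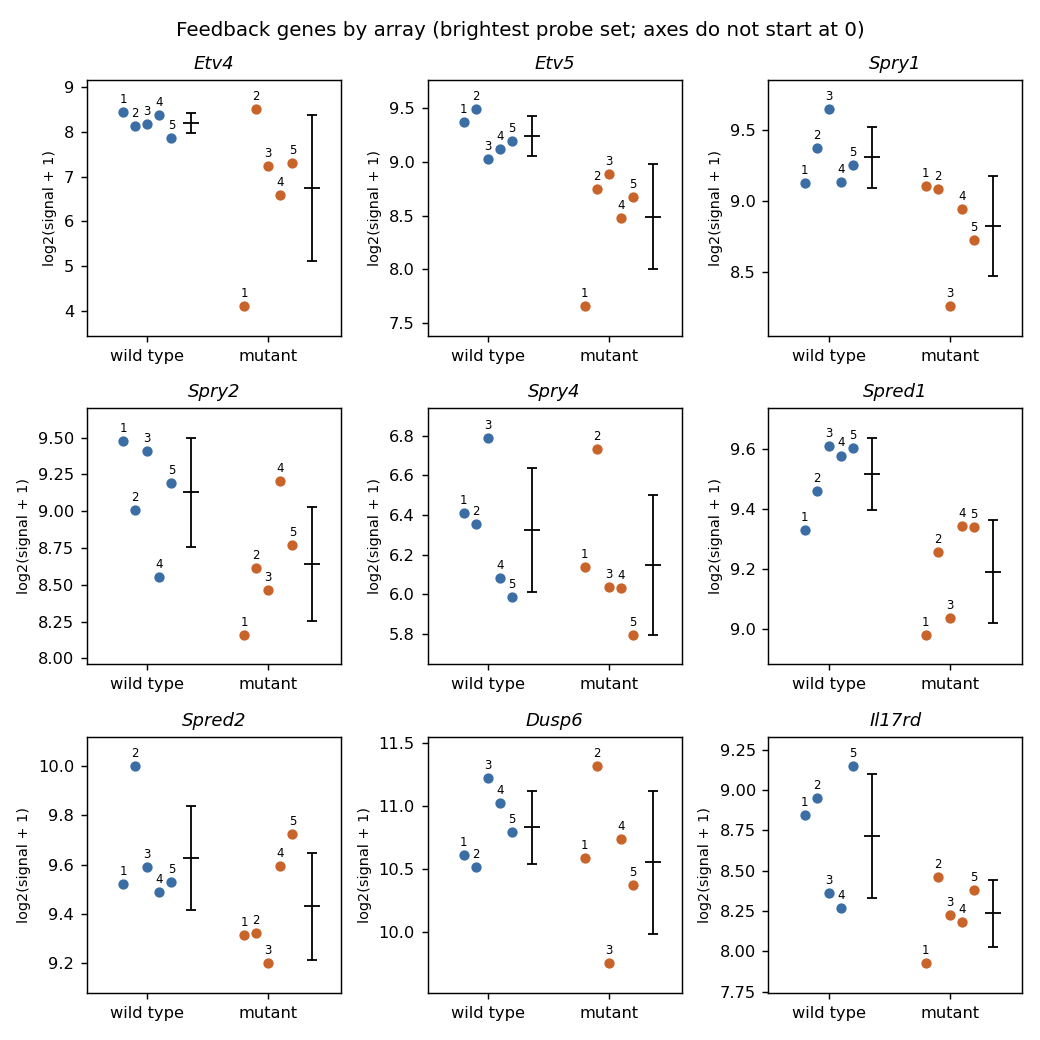
Log2(signal + 1) of each feedback gene on its brightest probe set, for 5 wild-type (blue) and 5 mutant (orange) arrays. Small digits are replicate numbers, which only name arrays, and the black bar is the mean with its SD. Etv5 and Spry1 show no overlap between the groups, and mutant replicate 1 lies far below the other arrays for Etv4.

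Etv5 had the clearest separation of the 2 ETS factors. Its signals on the brightest probe set were 661, 719, 521, 557 and 586 in wild-type replicates 1 to 5, and 200.2, 430.2, 474, 354 and 408 in mutant replicates 1 to 5. Every mutant array thus lay below every wild-type array, with mutant replicate 1 the lowest. The mean log2 signal was 9.24 ± 0.19 across wild-type arrays against 8.49 ± 0.49 across mutant arrays (SD, n = 5 each), 1.69-fold lower (difference -0.75, SE 0.23, 95% interval -1.26 to -0.25, limma adjusted p = 0.678). The other probe sets of Etv5 were lower as well, by 0.39 (SE 0.26) and 0.52 (SE 0.27), with groups that overlapped. Without mutant replicate 1 the difference on the brightest probe set was -0.54, and the unadjusted p stayed under 0.05 on leaving out any of the 10 arrays.

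Etv4 had a larger and far less even difference. Its brightest probe set gave 345, 278, 286, 329 and 231 in wild-type replicates 1 to 5, and 16.1, 362, 149, 95.8 and 158 in mutant replicates 1 to 5. Of the mutant arrays 4 lay below the lowest wild-type array, and mutant replicate 2 lay above the highest. The mean log2 signal was 8.19 ± 0.23 across wild-type arrays against 6.75 ± 1.63 across mutant arrays (SD, n = 5 each) (difference -1.44, SE 0.67, 95% interval -2.93 to 0.04, adjusted p = 0.908). The SD among mutant pools was the widest of the 9 genes. Without mutant replicate 1 the difference was -0.78, and without mutant replicate 2 it was -1.88. A second Etv4 probe set was dim, here meaning a mean log2 signal under 6.24, below which 40% of genes lie. This one, with signals of 21.2 to 76.0 in wild type and 40.8 to 56.6 in the mutant, showed no such gap (difference 0.03, SE 0.30).

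Among the Sprouty proteins, which block the path from receptor to RAS and RAF, Spry1 was the one whose groups did not overlap. Spry1 signals were 558, 662, 799.8, 561 and 609 in wild-type replicates 1 to 5, and 549, 541, 304, 491 and 422 in mutant replicates 1 to 5. The groups were separated by a narrow margin, since mutant replicate 1 at 549 lay just under wild-type replicate 1 at 558. The mean log2 signal was 9.31 ± 0.21 across wild-type arrays against 8.82 ± 0.35 across mutant arrays (SD, n = 5 each), 1.40-fold lower (difference -0.49, SE 0.18, 95% interval -0.90 to -0.07, adjusted p = 0.858). Without mutant replicate 3, the lowest array, the difference was -0.34, and the unadjusted p stayed under 0.05 in 8 of the 10 fits without 1 array, all but those without wild-type replicate 3 and mutant replicate 5. It was over 0.05 with arrays of like title wording paired as a block (difference -0.33) and inside either set of arrays split by 18S ribosomal RNA signal.

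Spry2 differed by as much on average, but with overlap. Its signals were 713, 514, 677, 374 and 585 in wild-type replicates 1 to 5, and 285, 391, 352, 589.9 and 436 in mutant replicates 1 to 5. Mutant replicate 4 was as high as the middle wild-type array, and wild-type replicate 4 was below 3 of the mutant arrays. The means were 9.13 ± 0.37 and 8.64 ± 0.39 in log2 signal (SD, n = 5 each) (difference -0.49, SE 0.23, 95% interval -0.999 to 0.03, adjusted p = 0.916). The second Spry2 probe set, at signals of 46.6 to 115.7 in the mutant, gave -0.03 (SE 0.29). Spry4 was dim, with signals of 62.5 to 109.7 in wild type and 54.6 to 105.5 in the mutant on its brightest probe set (difference -0.18, SE 0.21, 95% interval -0.64 to 0.28). Its 4 probe sets ran from -0.52 to +0.51, the last on a probe set with a mean log2 signal of 3.51 in wild type, so no direction can be read for Spry4.

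Spred1 and Spred2 encode Sprouty-related membrane proteins that recruit neurofibromin and so hold back RAS. Spred1 had the smallest spread within groups. On its brightest probe set the signals were 643, 704, 781, 763 and 778 in wild-type replicates 1 to 5, and 504, 612, 525, 649 and 647 in mutant replicates 1 to 5. All 5 mutant arrays lay below 4 of the 5 wild-type arrays, and only wild-type replicate 1 reached into the mutant range. The mean log2 signal went from 9.52 ± 0.12 to 9.19 ± 0.17 (SD, n = 5 each), 1.25-fold lower (difference -0.32, SE 0.12, 95% interval -0.59 to -0.06, adjusted p = 0.825). Its unadjusted p was under 0.05 on leaving out any 1 array, but it was over 0.05 after median centring, on averaging the 8 probe sets, with arrays of like title wording paired as a block and inside either set of arrays split by 18S ribosomal RNA signal. The second brightest Spred1 probe set, singled out after its values were seen, had groups that did not overlap, with 665, 613, 609.7, 695 and 616 in wild type and 537, 526, 523, 509 and 501 in the mutant (difference -0.30, SE 0.11). Of the 8 Spred1 probe sets 7 were lower and 1 was higher, at +0.16 (SE 0.19).

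Spred2 signals were 718 to 1023 in wild type, with a median of 738, and 587 to 844 in the mutant, with a median of 639. The groups overlapped widely (difference -0.20, SE 0.15, 95% interval -0.52 to 0.13, adjusted p = 0.982). Wild-type replicate 2 was the highest array, and without it the difference was -0.10. Of the 5 Spred2 probe sets 3 were lower and 2 were higher, from -0.73 (SE 0.64) to +0.24 (SE 0.64), both extremes on dim probe sets.

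Dusp6, the phosphatase that removes the activating phosphates from ERK, varied more between pools than between genotypes. Its signals were 1563, 1467, 2385, 2073 and 1771 in wild-type replicates 1 to 5, and 1534, 2543, 863, 1704 and 1328 in mutant replicates 1 to 5. Both the highest and the lowest array were mutant. The mean log2 signal was 10.83 ± 0.29 across wild-type arrays against 10.55 ± 0.57 across mutant arrays (SD, n = 5 each) (difference -0.28, SE 0.27, 95% interval -0.88 to 0.32, adjusted p = 0.993). The difference was -0.08 without mutant replicate 3 and -0.47 without mutant replicate 2, so these pools moved its size in opposite directions.

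Il17rd, a membrane protein that restrains FGF signalling, gave 459, 493, 327, 307 and 566 in wild-type replicates 1 to 5, and 242, 351, 299, 289.6 and 332 in mutant replicates 1 to 5. All 5 mutant arrays were below the wild-type median, but wild-type replicates 3 and 4 lay within the mutant range. The mean log2 signal was 8.71 ± 0.38 across wild-type arrays against 8.23 ± 0.21 across mutant arrays (SD, n = 5 each), 1.39-fold lower (difference -0.48, SE 0.19, 95% interval -0.91 to -0.05, adjusted p = 0.880). A dimmer second probe set was lower by 0.32 (SE 0.25). The unadjusted p of Il17rd stayed under 0.05 in 4 of the 10 fits without 1 array.

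**Figure D2:**
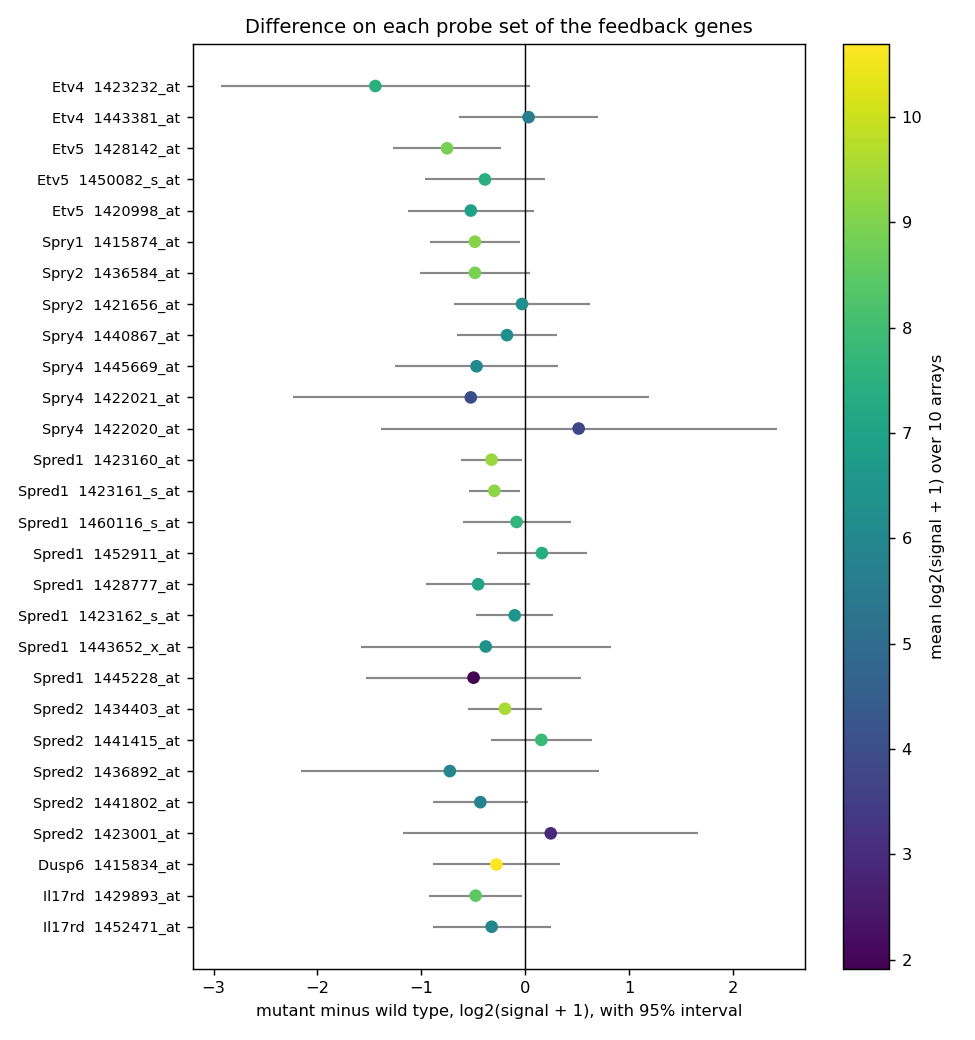
Mutant minus wild type on each of the 28 probe sets, in log2(signal + 1), with the 95% interval from limma as a grey line and the mean log2 signal over 10 arrays as colour. Most points lie left of 0, and the widest intervals belong to probe sets of Spry4, Etv4, Spred2 and Spred1.

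Over all probe sets of these genes, 23 of 28 were lower in the mutant and 5 were higher, with a median of -0.35, against 48.2% of all probe sets on the array below 0. At an unadjusted p under 0.05, 5 of 28 were lower and 0 higher, against 1.95% and 2.56% of all probe sets, and at an adjusted p 0 of 28 were called, against 0.00444%. Groups without overlap, all lower, were seen on 3 of 28, against 0.424% of all probe sets lower and 0.464% higher. Probe sets of 1 gene read the same RNA and are not separate evidence. Where a gene had more than 1 probe set, Etv5, Spry2 and Il17rd were lower on all of theirs, and Etv4, Spry4, Spred1 and Spred2 were mixed. For Spry2 and Etv4 this sorting rests on second probe sets near 0, at -0.03 (SE 0.29) and +0.03 (SE 0.30).

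The mutant pools were uneven. Averaged over the 9 genes, mutant replicate 1 lay 0.99 below the wild-type mean in log2 signal, a value that includes Etv4 at -4.09, and its median deviation was -0.54. Mutant replicate 3 was below the lowest wild-type array for 8 of 9 genes, and mutant replicate 1 for 7 of 9. Mutant replicate 2 was nearest to wild type, with a mean deviation of -0.09, and exceeded the wild-type mean for 3 genes, with Dusp6 at +0.48. That array also had the brightest hybridisation controls, with a mean log2 signal of 11.61 against 9.39 to 11.15 on the others. Their part in the result was not tested. The wild-type arrays stayed between -0.14 and +0.10 in mean deviation.

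**Figure D3:**
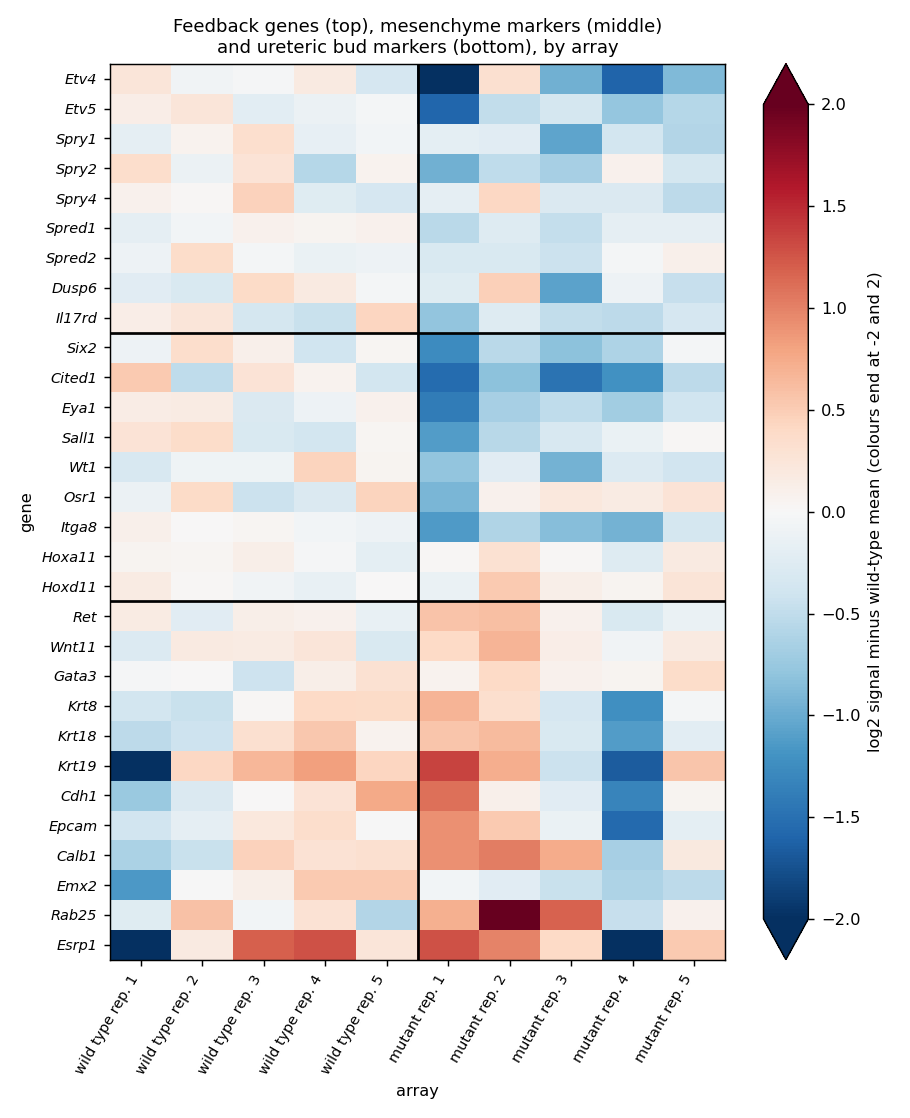
Log2 signal minus the wild-type mean, for each array (columns, 5 wild type and 5 mutant) and each gene (rows). The feedback genes are at the top, mesenchyme markers in the middle and ureteric bud markers at the bottom, and colours end at -2 and 2. The 9 feedback genes are below the wild-type mean in mutant replicates 1 and 3, while bud markers in mutant replicate 1 are mostly above it.

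Markers of the tissue and of cells it could hold were read beside these genes. Of 9 measured mesenchyme markers 7 were lower in the mutant and 2 higher, with a median of -0.52 against -0.48 for the feedback genes. At an unadjusted p under 0.05 by limma, 5 of 9 were lower and 0 higher, against 2.08% and 3.41% of all genes. Groups without overlap, lower in the mutant, were seen for 3 of 9, against 0.555% of all genes. The summed signal of the markers was 8134 to 9753 in wild type and 4568 to 7962 in the mutant, without overlap, and mutant replicate 1 was the lowest. The 3 with the highest wild-type signals were Eya1 (difference -0.73, SE 0.20), Six2 (-0.66, SE 0.22) and Sall1 (-0.42, SE 0.24), all regulators of nephron progenitors. Osr1, also counted among the 7 lower, was at -0.04 (SE 0.27). Hoxa11 and Hoxd11, which mark the field as a whole, were at +0.05 (SE 0.13) and +0.16 (SE 0.14). The part of progenitor number in the lower feedback genes was not tested.

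Ureteric bud markers were mixed in direction. Of 12 measured, 5 were lower and 7 higher in the mutant, 0 at an unadjusted p under 0.05 in either direction, and the summed signals overlapped, at 1993 to 3687 in wild type and 1558 to 4460 in the mutant. None was at 0 throughout, but Esrp1 was at 4.005 in wild-type replicate 1 and 3.46 in mutant replicate 4. Krt18, Krt8 and Calb1, the 3 brightest, differed by -0.09 (SE 0.35), -0.12 (SE 0.34) and +0.44 (SE 0.35). Mutant replicate 1, which had the lowest Etv4 and Etv5 signals, had the highest summed bud signal, 4460. In mutant replicates 2, 3, 4 and 5 the summed bud signals were 4134, 2764, 1558 and 2746. The Etv4 signals of those arrays were 362, 149, 95.8 and 158. The part of remaining bud cells in the result was not tested. Ret, the bud receptor upstream of Etv4 and Etv5, differed by +0.16 (SE 0.20).

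Markers of other cells were higher in 10 of 10 macrophage genes and 8 of 8 endothelial genes, with medians of +0.35 and +0.14. Summed macrophage signals were 1501 to 2125 in wild type and 1422 to 2869 in the mutant, and summed endothelial signals 2892 to 3766 and 2884 to 3870. Stroma was higher in 5 of 8 genes (median +0.15), neural markers in 3 of 5 (+0.25) and erythroid markers in 4 of 7 (+0.03). At an unadjusted p under 0.05, 2 stroma, 2 neural and 1 macrophage gene were higher, against 3.41% of all genes. Endothelial and erythroid lists had 0. Groups without overlap, higher in the mutant, were seen for 1 stroma and 1 neural gene, against 0.654% of all genes. The part of these cells in the result was not tested.

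The arrays fell into sets by their 18S ribosomal RNA signal at the 5′ end of that transcript, 4 high and 6 low, with equal numbers of both genotypes in each. Within both sets all 9 feedback genes had lower means in the mutant, where 51.5% of all genes did in the high set and 42.7% in the low set. Etv5 differed by -0.77 within the 4 high arrays and -0.74 within the 6 low arrays, and Spry1 by -0.48 and -0.49, so these were nearly the same in both. Spry2 was at -0.11 and -0.73, Il17rd at -0.77 and -0.29, Dusp6 at -0.10 and -0.40, and Etv4 at -1.04 and -1.71. The difference between the sets was not tested. Within the low set 0 of 9 were lower at an unadjusted p under 0.05 by limma, against 1.41% of all genes in that fit. Within the high set 3 of 9 were, namely Etv4, Etv5 and Il17rd, against 3.44%. With title wording as a block, a fit whose difference rests on the 3 pairs of arrays with like titles, 2 of 9 were lower at that mark, namely Etv5 and Il17rd, against 3.37%.

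**Figure D4:**
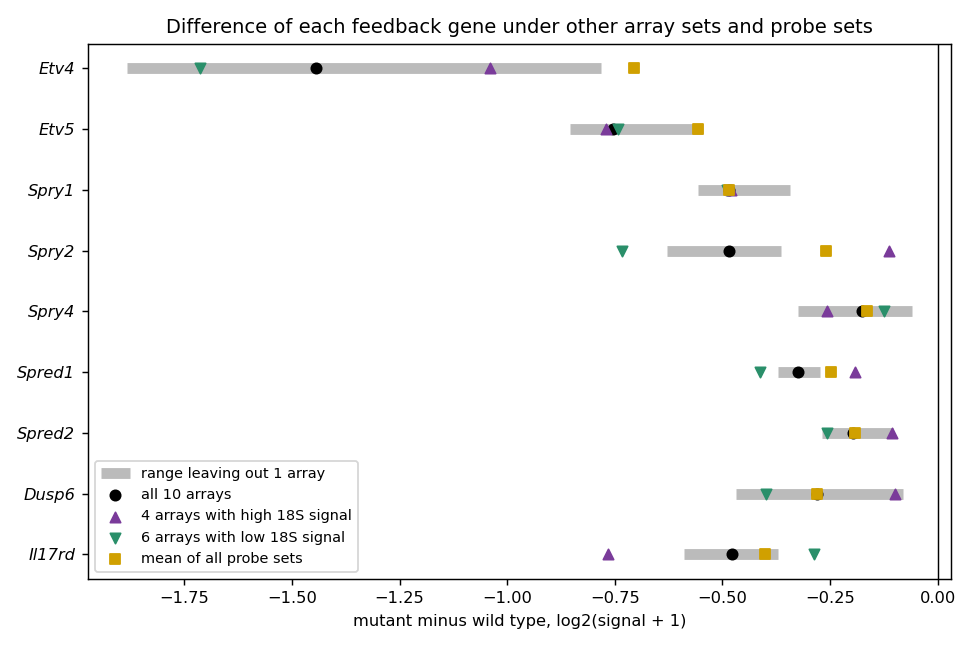
Mutant minus wild type in log2(signal + 1) for each feedback gene with all 10 arrays (black), the 4 arrays with high 18S signal (triangle up), the 6 with low 18S signal (triangle down) and the average of all probe sets per gene (square), with a grey bar over the fits that leave out 1 array. All marks lie left of 0. Spry1 and Etv5 hold their place across the 18S sets, and Etv4 spans the widest range.

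The rest of the pathway did not share one direction. Of 18 measured ligands (of 19 listed) of receptor tyrosine kinases 12 were lower and 6 higher (median -0.09), and 4 were lower at an unadjusted p under 0.05, with 0 higher. Those 4 were Fgf8 (-2.46, SE 0.50, on signals of 3.64 to 78.8), Gdnf (-1.12, SE 0.23), Fgf9 (-0.76, SE 0.31) and Pdgfa (-0.59, SE 0.17). Gdnf, the mesenchymal ligand of Ret, and Pdgfa had groups that did not overlap, lower in the mutant, against 0.555% of all genes. Of 18 receptors and co-receptors 13 were higher and 5 lower (median +0.12), with Kit (+0.68, SE 0.18), Pdgfra (+0.36, SE 0.11) and Fgfr3 (+0.33, SE 0.14) higher at that mark and Gfra1, the co-receptor of Ret for Gdnf, lower (-0.41, SE 0.13). Kit and Pdgfra had groups that did not overlap, higher in the mutant, against 0.654% of all genes. At the unadjusted p the background was 2.08% of all genes lower and 3.41% higher. The FGF receptors of the mesenchyme, Fgfr1 and Fgfr2, differed by -0.08 (SE 0.16) and -0.0025 (SE 0.11).

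Of 16 measured adaptors and members of the RAS to ERK cascade (of 23 listed) 11 were higher and 5 lower (median +0.07). The ERK-activated kinase Rps6ka3 was at -0.35 (SE 0.14) and the adaptor Frs3 at +0.51 (SE 0.22). These were the 1 lower and 1 higher at an unadjusted p under 0.05, against 2.08% and 3.41% of all genes. The next smallest p belonged to the adaptors Gab1 (+0.15, SE 0.15) and Grb2 (+0.13, SE 0.16). Of 30 other outputs and feedback genes of ERK 17 were lower and 13 higher (median -0.05). Dusp4, another phosphatase of the family, was at -0.64 (SE 0.25) and Flrt3, a membrane protein that binds FGF receptors, at +0.54 (SE 0.22). They were 1 of 30 in each direction at that mark, near the share over all genes. Dusp9 (-0.40, SE 0.19) and Cbl (-0.22, SE 0.12) followed without reaching that mark. The immediate early genes Egr1 and Fos were at -0.07 (SE 0.38) and +0.03 (SE 0.30). None of these 82 pathway genes was called at an adjusted p under 0.05.

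**Figure D5:**
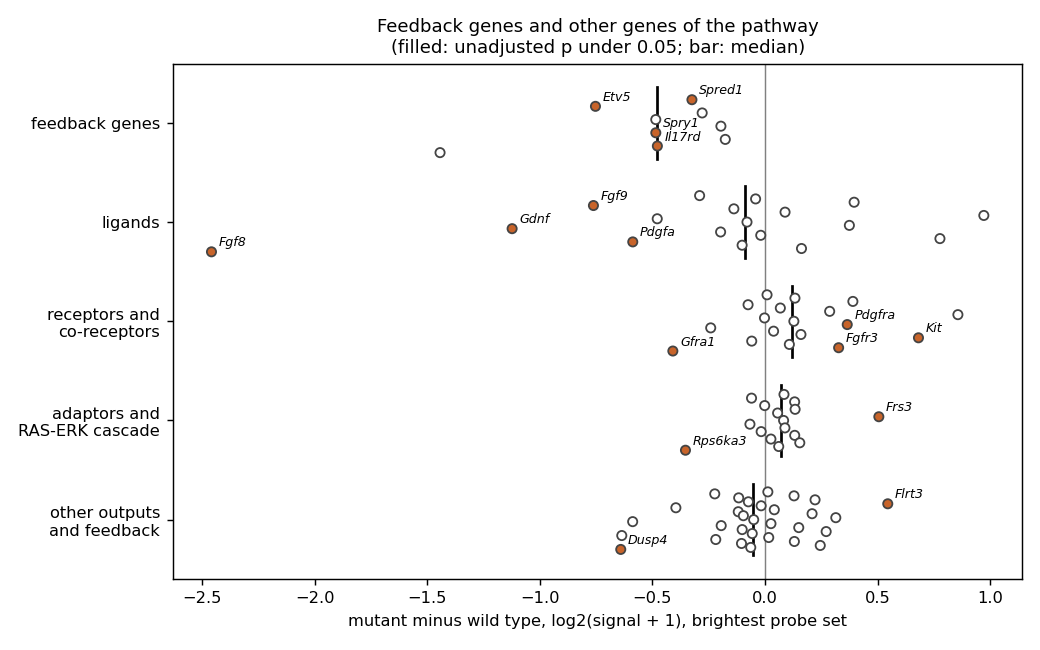
Mutant minus wild type in log2(signal + 1) for the 9 feedback genes and 82 other genes of the pathway by role, on each gene's brightest probe set. Filled points have an unadjusted p under 0.05 and the black bar is the median. The feedback genes all lie left of 0, while each other role has genes on both sides.

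The genes most like 3 of the members across the 10 arrays were taken after the mean of each group was subtracted, among 9281 genes with a mean log2 signal of at least 7. The values describe these arrays only, which share labelling and scaling. As the highest among 9281 genes on 10 arrays, they can be large by chance, and they were not tested. Etv5 was most like Ogdh (Pearson r = 0.94), Eya1 (r = 0.94) and Fn3krp (r = 0.93), which differed by -0.04, -0.73 and -0.04 between the group means. Spry1 was most like Rccd1 (r = 0.96), 1500011B03Rik and Furin (both r = 0.92), at -0.02, +0.16 and +0.12. Dusp6 was most like the immediate early gene Egr1 (r = 0.96), then Mex3c (r = 0.95) and Zfp24 (r = 0.93), at -0.07, -0.02 and +0.01.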

How the data were processed

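The deposited table holds Affymetrix probe-set intensities on a linear scale for 10 arrays, with biotin-labelled cRNA made from about 1 ug of total RNA per the labels' protocols. The method of summarising probes is not stated in the labels or the file. After trimming 2% at each end every array had a mean of 250.0, so the authors' values were scaled before deposit. No further normalization was applied in the main fit. Array medians lay between 5.99 and 6.30 in log2 signal, a range wider than the differences of Spry4 and Spred2. Median centring and quantile normalization were therefore among the alternatives. Probe sets were named from the platform annotation with symbols of GRCm38.p6, and a gene stood for its probe set with the highest mean. The groups were set against each other in R 4.3.3 by limma 3.58.1 (lmFit, eBayes, two-sided, Benjamini-Hochberg over all 18193 genes or all 45037 probe sets), checked on simulated data. Each array had its own RNA pool, per the labels. Replicate numbers follow sample order and pair nothing. A fold on this scale understates changes of dim genes, and 10 arrays limit the precision.

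The members, lists, motifs and alternatives were chosen with earlier results of these data known. Named genes are all members, the 4 smallest p of each pathway list, the 3 brightest genes of the mesenchyme and bud lists and the 3 genes most like Etv5, Spry1 and Dusp6. Ret, Fgfr1, Fgfr2, Egr1, Fos, Hoxa11, Hoxd11, Osr1 and Esrp1 were added after their values were seen. Alternatives were the mean of probe sets, array weights, median centring, quantile normalization, a pseudocount of 16, a robust fit with an intensity trend, a filter on the dimmest 40% of genes, blocks for title wording and for 18S sets (split at a signal of 1000), each 18S set alone and leaving out each array. Windows around starts are from RefSeq.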

Additional observations from a re-analysis of the deposited data

Results flagged for a closer look

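Within each group of 5 arrays the lowest and the highest log2 signal of each of the 28 probe sets were set against the group's range, 56 groups in all. Chance marks about 1 in 20, or 2.8 here, and 2 stood apart. On the brightest Spred2 probe set, wild-type replicate 2 was at 9.9995, and the other wild-type arrays were at 9.49 to 9.59. On a dimmer Spred1 probe set, mutant replicate 4 was at 3.99, and the others of its group were at 6.33 to 6.96.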

How the results depend on the processing

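All members measured stayed lower at the gene level in each of the 21 alternatives run, 8 of 8 where the filter on dim genes removed Spry4, and 0 were called at a limma adjusted p under 0.05, the lowest being 0.268 with that filter. Few genes of any kind were called in these fits. The number called over all genes ran from 0 to 10 of 18193, the highest in the robust fit with an intensity trend, and was 6 of 10916 with the filter. The count at an unadjusted p under 0.05, 4 with all arrays, was 3 to 5 on leaving out 1 array, 2 with the block for title wording (3 pairs of arrays with like titles), where Spry1 and Spred1 were lost, and 0 in the 6 low-18S arrays alone, a set with fewer arrays. It was 3 to 6 in the other alternatives. Lower at that mark were 2.08% of all genes with all arrays and 3.37% with the block for title wording. In the low-18S arrays alone 1.41% were, and in the high-18S arrays alone 3.44%. For the remaining fits this share was not worked out, so their counts stand without a background. The median difference ran from -0.26 in the high-18S arrays alone to -0.53 without wild-type replicate 4. The mean of probe sets took Etv4 to -0.71 and Spry2 to -0.26.

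Some single probe sets changed sign. In the high-18S arrays alone, a setting added for probe sets after the data were seen, a Spry4 probe set went to -1.30, a Spred2 one to -0.11 and the dim Etv4 one to -0.58, and in the low-18S arrays alone the dim Spry2 one went to +0.18. Leaving out 1 array, these ranged from -0.022 to +1.12 (Spry4), -0.23 to +0.53 (Spred2), -0.25 to +0.20 (Etv4) and -0.19 to +0.13 (Spry2). A second Spred2 probe set ranged from -0.013 to +0.29, and 3 of Spred1 from -0.24 to +0.071, -0.58 to +0.16 and -0.18 to +0.0084. For these the cause was not tested.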

Other observations

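The 3 probe sets annotated to both Etv1 and Gm5454 were outside the rule and entered no comparison. On the brightest, signals were 189.6 to 251 in wild type and 192 to 273 in the mutant. The ranges overlapped, with mutant replicates 1 and 2 above every wild-type array. On the others they were 96.4 to 149 and 78.3 to 143, and 7.12 to 20.1 and 2.58 to 20.6.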
